A study of Arabidopsis thaliana with 4 samples.

Results

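Among the cDNA clones of an Arabidopsis stress array, 46 had a lower signal in plants fed on by thrips than in untreated plants at each of the 4 feeding times, 2, 5, 10 and 24 h. They were selected on the measured values themselves. A clone was a member when its deposited log2 ratio of fed over untreated plants, minus that of the array's median clone, was at most -0.8 on every array. The array held 1182 clones, of which 607 had a value at all 4 times, and 57 of these met the limit. The rule left out 13 named genes, 11 of which met the limit. The 46 members comprised 6 clones with a gene name and 40 clones known here by clone name only. RAFL clones are full-length Arabidopsis cDNAs of the RIKEN collection, and each was spotted as a pair of spots.

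Western flower thrips (Frankliniella occidentalis) are small insects that pierce single plant cells and empty them. Plants attacked by such insects commonly raise transcripts for jasmonate signalling and defence, while many transcripts for photosynthesis, growth and protein synthesis become less abundant.

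Columbia-0 wild-type plants, soil-grown for 21 days at 22 °C under 16 h of light and 8 h of dark, were compared at 2, 5, 10 and 24 h of feeding with untreated plants of the same ecotype and age. Per the labels, each fed plant was enclosed in a cylinder chamber with 25 adult females that had been starved for 3 h, and no empty chamber is described for the untreated plants. Leaves, or the whole plant without its root, were taken, 30 to 70 plants per sample, and 3 to 4 experiments were pooled before RNA extraction. Fed plants were labelled with Cy5 and untreated plants with Cy3 on every array, with no dye swap, so that a dye effect of a clone and the effect of feeding cannot be told apart. Per the labels, 2 to 3 arrays were run with each RNA, of which 1 per time is used here. The SD between the spots of a clone is technical, and without replicate arrays no single time can be tested. In a leaf extract, fewer cells of a type and less RNA per cell cannot be told apart. None of the 16 leaf and chloroplast genes listed to check the tissue was named on the array, and of 14 genes of roots, guard cells, epidermis, phloem and flowers only the root gene PYK10, a beta-glucosidase, was named. PYK10, which is no member, was above background in untreated plants at all 4 times and had log2 ratios of -0.27, 0.42, 1.5 and 2.86 at 2, 5, 10 and 24 h. Its part in the results was not tested, and with 1 listed gene named the labelled tissue could not be checked further.

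Relative to the median clone, the 46 clones were lower in fed plants by a median of 2.22-fold at 2 h, 3.17-fold at 5 h, 3.69-fold at 10 h and 3.03-fold at 24 h. These values follow loess normalization of the scanner intensities, and the folds against control spots, given below, were smaller. On the log2 scale these medians were -1.15, -1.67, -1.88 and -1.60, beside medians over all clones with a value of -0.12, -0.06, -0.05 and -0.02. The members ran from -2.27 to -0.76 at 2 h and from -4.24 to -0.63 at 5 h. At 10 h they ran from -6.99 to -0.41, and at 24 h from -2.97 to -0.77. Their spread was therefore widest at 10 h, with an SD over members of 1.58 on the log2 scale, against 0.44 at 2 h, 0.91 at 5 h and 0.51 at 24 h, with fed signals not above background entered as measured. Over all clones the SD was 1.11, 1.29, 1.60 and 1.28 at 2, 5, 10 and 24 h.

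**Figure D1:**
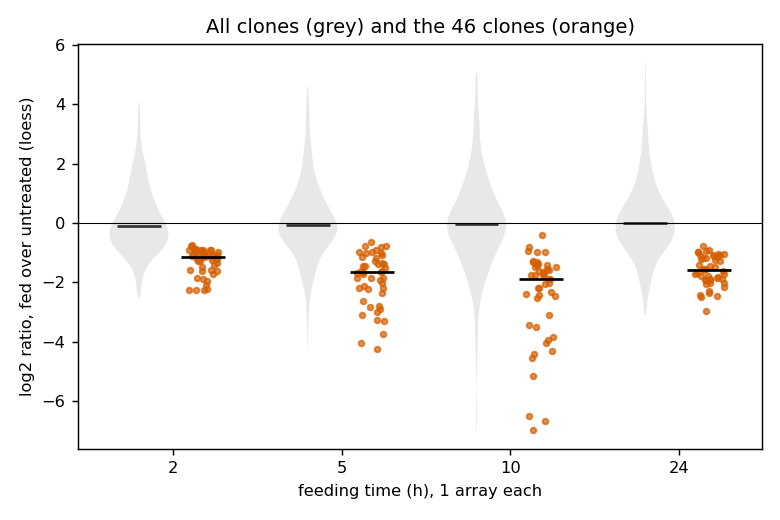
Log2 ratio of fed over untreated plants (y axis, loess) at each feeding time in hours (x axis, 1 array each). Grey shapes show the distribution of all clones with a value and orange points the 46 members, with a line at each median: the members' median goes from -1.15 at 2 h to -1.88 at 10 h and -1.60 at 24 h.

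Of the 46 clones, 33 were at least 2-fold lower at 2 h, 39 at 5 h, 41 at 10 h and 41 at 24 h. Over all clones with a value, 12.5%, 15.8%, 22.3% and 16.0% were at least 2-fold lower at 2, 5, 10 and 24 h. At all 4 times together, 30 of the 46 met this fold, against 6.75% of the 607 clones with 4 values. The members were chosen from this same contrast, so these counts only describe how low they were.

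Averaged over the 4 times, 14 members had a mean log2 ratio of at most -2, 29 lay between -2 and -1, and 3 lay above -1. The extremes of the mean were -3.77 and -0.79, the first being -3.18 when fed signals not above background are set to their bound. Within a clone, the difference between its highest and lowest time had a median of 0.94 on the log2 scale, beside 0.96 over all clones with 4 values. That difference ran from 0.09 to 4.22 among the members with such signals at their bound, and to 5.88 with them as measured.

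**Figure D2:**
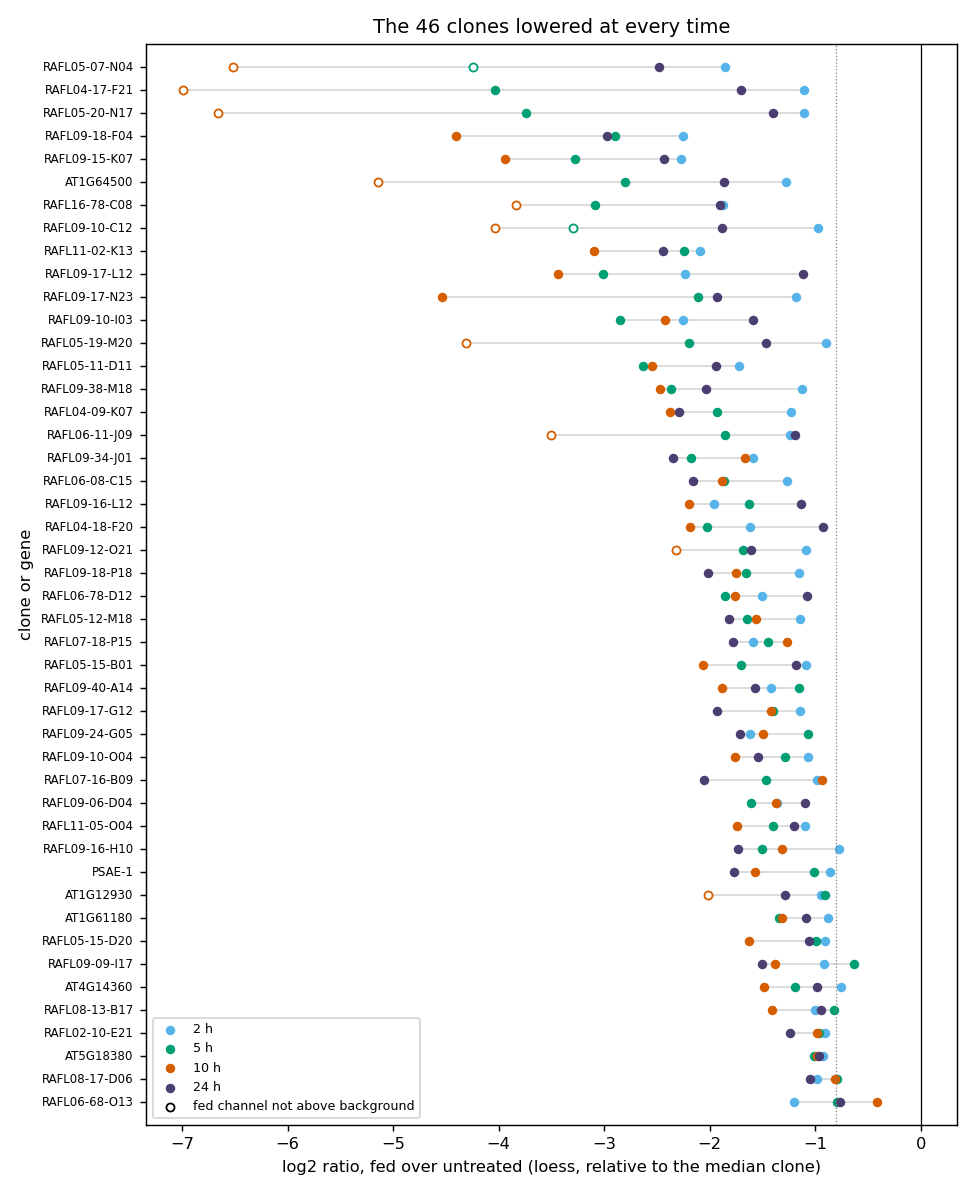
Log2 ratio of fed over untreated plants (x axis, loess, relative to the median clone) of each of the 46 members (y axis, ordered by their mean), with 1 point per feeding time. Open points mark a fed signal not above background, 2 at 5 h and 10 at 10 h, and the dotted line stands at -0.8: the uppermost clones spread over several log2 units while the lowest ones stay close to the line.

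The lower levels are stated against the median clone, on an array made of stress-related genes. The median clone itself had a higher ratio of Cy5 over Cy3 than the control spots. It stood above the bacteriophage lambda DNA spots by 0.70, 1.79, 1.1 and 1.26 on the log2 scale at 2, 5, 10 and 24 h. Above the alpha tubulin spots it stood by 0.84, 1.31, 0.94 and 1.71. With lambda DNA set to 0, the members' medians became -0.35, 0.15, -0.76 and -0.32 at 2, 5, 10 and 24 h, and 46, 20, 43 and 29 of the 46 clones were below 0. With alpha tubulin set to 0, the medians became -0.20, -0.33, -0.92 and 0.13, and 38, 33, 44 and 20 clones were below 0. Of all clones with a value, 19.8%, 5.37%, 20.7% and 9.61% were below lambda DNA and 14.6%, 10.9%, 23.7% and 5.71% below alpha tubulin. Over the mean of the 4 times, 37 members were below lambda DNA and 38 below alpha tubulin. At every one of the 4 times, 17 members were below lambda DNA and 17 below alpha tubulin, whereas all 46 were below the median clone.

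**Figure D3:**
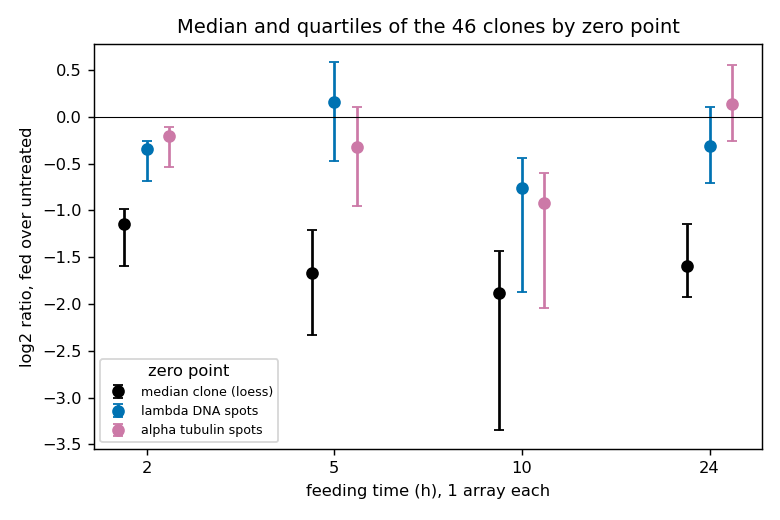
Median log2 ratio of the 46 members (y axis, with bars from the lower to the upper quartile) at each feeding time in hours (x axis, 1 array each) under 3 zero points. Set against the median clone the median stays between -1.88 and -1.15, whereas against lambda DNA it is 0.15 at 5 h and against alpha tubulin 0.13 at 24 h.

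The 6 named members belong to photosynthesis, redox control, pathogen recognition, methyl transfer and protein synthesis, and 1 has no role given here. PSAE-1 (clone RAFL11-02-M05) encodes a stromal subunit of photosystem I, the complex that passes electrons to ferredoxin in the thylakoid membrane. Its log2 ratio was -0.86 at 2 h, -1.01 at 5 h, -1.57 at 10 h and -1.77 at 24 h. PSAE-1 was lowest at 24 h and was lower at each later time than at the one before. The step between 5 and 10 h was larger than the SD between its spots, 0.15 at 5 h and 0.05 at 10 h.

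AT1G64500 (clone RAFL07-09-G24) encodes a protein of the glutaredoxin family, whose members act in thiol-based redox control. Its log2 ratio was -1.28 at 2 h, -2.81 at 5 h, -5.14 at 10 h and -1.87 at 24 h. It was the lowest named member, with a mean of -2.77 over the 4 times, or -2.55 with the bound at 10 h described next. At 10 h its fed signal was not above background, so that only a bound holds there. Set against the dimmest signal measurable on that array, it was at least 19.2-fold lower in fed plants at 10 h. Its spots differed more than most, with an SD of 0.60 at 5 h and 0.56 at 10 h, and the steps from 2 to 5 h and from 5 to 10 h were larger than these.

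AT1G61180 (clone RAFL07-11-K06) encodes an intracellular resistance protein of the nucleotide-binding, leucine-rich-repeat type, the class of receptors that recognise pathogen effectors. Its log2 ratio was -0.87 at 2 h, -1.34 at 5 h, -1.31 at 10 h and -1.08 at 24 h. The values at 5 and 10 h differed by less than the SD of 0.26 between its spots at 10 h.

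AT4G14360 (clone RAFL07-08-F02) encodes a putative methyltransferase. Its log2 ratio was -0.76 at 2 h, -1.19 at 5 h, -1.48 at 10 h and -0.98 at 24 h, so that 2 and 24 h were the times nearest to the median clone. AT1G12930 (clone RAFL08-08-I18) had log2 ratios of -0.94, -0.91, -2.02 and -1.29 at 2, 5, 10 and 24 h. The fed signal of AT1G12930 did not exceed background at 10 h. Its limit there, 4.05-fold lower, is the ratio as measured, because its own fed signal was higher than the dimmest signal above background. At 24 h 1 spot of AT1G12930 was usable.

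AT5G18380 (clone RAFL05-08-B08) encodes a protein of the small subunit of the cytosolic ribosome, part of the machinery that makes proteins. Its log2 ratio was -0.93 at 2 h, -1.01 at 5 h, -0.98 at 10 h and -0.96 at 24 h. The range of 0.09 was the narrowest of the 46 members and lay within the SD of 0.16 between its spots at 10 h. AT1G64500 had the widest range of the named members, 2.98 with its 10 h value at the bound and 3.86 with that value as measured. PSAE-1, AT5G18380 and AT1G61180 have close relatives in the genome, and a long cDNA probe can also bind transcripts of relatives.

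With lambda DNA as zero, the means over the 4 times were 0.05 for AT1G61180, 0.07 for AT4G14360 and 0.20 for AT5G18380, on the other side of 0. With alpha tubulin as zero they were 0.03, 0.06 and 0.19. PSAE-1, AT1G64500 and AT1G12930 had means below 0 under both zero points, but those of PSAE-1 and AT1G12930 were close to it. With lambda DNA and alpha tubulin, respectively, the means were -0.13 and -0.14 for PSAE-1 and -0.06 and -0.07 for AT1G12930. They were -1.61 and -1.62 for AT1G64500, which was below 0 at all 4 times under both. PSAE-1 was below lambda DNA at 3 times and below alpha tubulin at 2, and AT1G12930 was below each at 2.

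The clones with the lowest means had no gene name. RAFL05-07-N04 had log2 ratios of -1.85 at 2 h, -4.24 at 5 h, -6.52 at 10 h and -2.48 at 24 h, with a mean of -3.77. Its fed signal was not above background at 5 h (at least 14.6-fold lower) nor at 10 h (at least 23.0-fold lower). Its background-subtracted untreated signal meanwhile stayed between 2425 and 2902 intensity units at all 4 times, so the low ratio at 10 h came with a fed signal of -104.5 units after background subtraction.

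RAFL04-17-F21 had log2 ratios of -1.11 at 2 h, -4.03 at 5 h, -6.99 at 10 h and -1.70 at 24 h. Its fed signal was not above background at 10 h, where a bound of at least 40.0-fold lower holds. The range over the times was 4.22 with that value at its bound and 5.88 as measured, the widest of the 46 members either way. Its untreated signal was 2122 units at 2 h and 8319, 5339 and 8018 units at 5, 10 and 24 h, and its fed signal was 796.5, 768 and 3168 units at 2, 5 and 24 h. At 10 h the fed signal was -105 units after background subtraction. Its spots at 2 h had an SD of 0.54, the largest among the members at that time.

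RAFL05-20-N17 had log2 ratios of -1.1, -3.74, -6.66 and -1.40 at 2, 5, 10 and 24 h, and was at least 27.7-fold lower at 10 h. RAFL05-19-M20 had log2 ratios of -0.90, -2.20, -4.31 and -1.46, and was at least 19.4-fold lower at 10 h. In both clones 10 h was the lowest time, with a fed signal not above background, and 5 h was the next lowest. RAFL09-18-F04 differed in that its fed signal was above background at every time. Its log2 ratios were -2.26, -2.90, -4.40 and -2.97 at 2, 5, 10 and 24 h, and its mean was -3.13.

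At the other end of the unnamed clones, 4 had the highest means among them. RAFL08-13-B17 had log2 ratios of -1.0, -0.83, -1.41 and -0.95 at 2, 5, 10 and 24 h. RAFL02-10-E21 had -0.90, -0.97, -0.98 and -1.24, and RAFL08-17-D06 had -0.98, -0.79, -0.81 and -1.05. RAFL06-68-O13 had -1.20, -0.79, -0.41 and -0.77 and was the member nearest to the median clone at 10 h. All 4 had means above 0, from 0.14 to 0.39, once lambda DNA was set to 0, and from 0.12 to 0.38 with alpha tubulin.

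The median member was brighter than the median clone in untreated plants and dimmer than it in fed plants. Their background-subtracted untreated signal had medians of 2726, 3004, 2238 and 1946 intensity units at 2, 5, 10 and 24 h, beside 952, 994, 735.5 and 785.5 over all clones. Their fed signal had medians of 814, 1177, 371 and 671 units, beside 1104, 1704, 1106 and 1075 over all clones. Ranked among all clones of the array, the median member stood at the 78.4, 77.9, 78.8 and 74.2 percentile in the untreated channel and at the 40.9, 38.7, 12.2 and 34.2 percentile in the fed channel. Single members ranged widely: averaged over the times, they stood from the 33.3 to the 100 percentile in untreated plants and from the 5.10 to the 96.6 percentile in fed plants. Spot brightness depends on the probe as well as on the transcript, and both channels enter the ratio that chose the members.

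The untreated signal was above background for all 46 members at all 4 times. The fed signal was above background in all 46 at 2 and 24 h, in 44 at 5 h and in 36 at 10 h. The 12 dim values belonged to 10 clones, and their lower limits ran from 4.05-fold to 40.0-fold. For some of them, AT1G12930 included, the limit is the ratio as measured and so rests on a fed signal not above background. In 4 members the fed signal at 10 h was at or below the local background. The 36 members with a measurable fed signal at every time had medians of -1.17, -1.56, -1.70 and -1.58 on the log2 scale at 2, 5, 10 and 24 h. Leaving out the dim clones thus moved the 10 h median from -1.88 to -1.70.

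**Figure D4:**
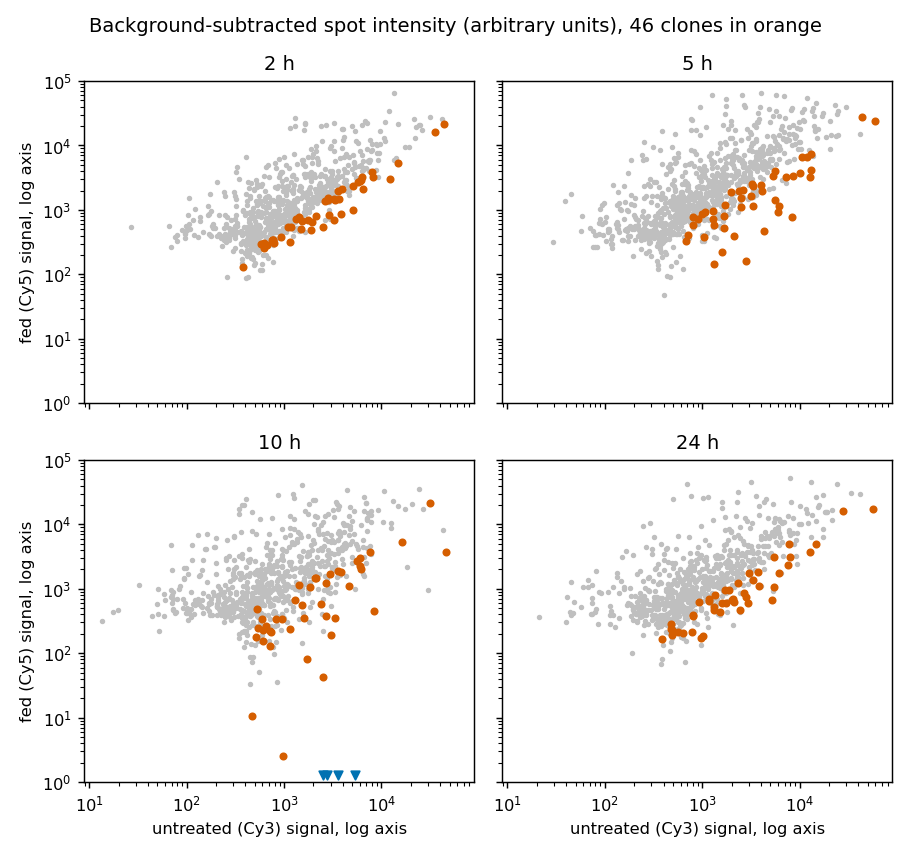
Background-subtracted intensity of each clone in fed plants (Cy5, y axis, log scale) against untreated plants (Cy3, x axis, log scale) in arbitrary units, with 1 panel per feeding time, all clones in grey and the 46 members in orange. The members follow the lower edge of the cloud, and at 10 h the 4 triangles at the foot of the panel mark members whose fed signal was at or below the local background.

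The saturation of a bright spot can narrow a ratio, and of the members 2 stood out by their untreated signals. RAFL09-17-N23, the brightest clone of the array in Cy3 at every time, had untreated signals from 44228 to 58933 units and log2 ratios of -1.18, -2.11, -4.54 and -1.93 at 2, 5, 10 and 24 h. Its fed signal went from 21203 units at 2 h to 3663 units at 10 h and 17459 units at 24 h. Between 15.4% and 44.5% of its pixels were saturated, in the more saturated dye of each array. RAFL09-06-D04, with untreated signals from 27810 to 43424 units, had log2 ratios of -1.36, -1.61, -1.37 and -1.09.

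The pair of spots of a clone lay side by side for 45 of the 46 members, and their median SD was 0.11, 0.09, 0.11 and 0.09 on the log2 scale at 2, 5, 10 and 24 h. Over 183 pairs of spots, 4 had an SD above 0.5, and the largest, 1.02, was that of RAFL16-78-C08 at 10 h. Members were found in all 12 print blocks, 1 to 9 in each, which was from 1.54% to 15.8% of a block's clones with 4 values. They came from 9 clone libraries. RAFL09 gave 18 members (39.1%) against 27.7% of the 607 clones with 4 values, and RAFL05 gave 8 (17.4%) against 19.3%. RAFL11 and RAFL04 gave 3 each (6.52%), against 1.98% and 12.2%, respectively.

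Over the times, 26 members were lowest at 10 h, 13 at 24 h, 6 at 5 h and 1 at 2 h. The corresponding shares were 56.5%, 28.3%, 13% and 2.17%, against 36.7%, 28.8%, 13% and 21.4% of the 607 clones with 4 values. Counting the dim values at their bound moved 1 clone, to 25 at 10 h and 7 at 5 h. Among the 36 members that were measurable throughout, 16 were lowest at 10 h, 13 at 24 h, 6 at 5 h and 1 at 2 h. The rule used the values at each time, and since it set only an upper limit, a member could vary downwards but not upwards beyond it.

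Between 2 and 5 h, 37 of the 46 clones were lower at the later time, by a median difference of -0.49, whereas 51.9% of all clones with 4 values were lower and their median difference was -0.02. Between 10 and 24 h, 32 of the 46 were higher at the later time, with a median difference of 0.52, against 54.5% of all clones and a median of 0.07. A course that went down through 5 and 10 h and was higher again at 24 h was seen in 22 members (47.8%), against 24.1% of all clones. These shares come from the values that chose the members, and the one-sided limit favours such courses, so they are a description.

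The slope of the log2 ratio on log2 hours was tested with limma in all clones with values on at least 3 arrays and either channel above background on at least 2. With Benjamini-Hochberg adjustment 0 of the 46 members passed 0.05, beside 0% of the 716 clones tested, and the smallest adjusted p of a member was 0.608. At an unadjusted p under 0.05 there were 0 members and 67 of the 716 clones. The slope was negative in 39 of the 46 members, with a median of -0.13 per doubling of time, and in 57.3% of all clones, with a median of -0.03. The arrays at 2 and 5 h shared a slide and those at 10 and 24 h another. With the slide as a block, 18 of the 46 slopes were negative and the median was 0.07, and without the 2 h array 21 were negative. With alpha tubulin as zero 16 were negative, and with lambda DNA 30.

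A straight line over 4 times does not follow a course that turns after 10 h, and leaving out the 24 h array changed the count. It was the only array whose removal gave any member that passed, and this fit was followed further after that was seen. Over 2, 5 and 10 h, 10 of the 46 members (21.7%) fell with an adjusted p under 0.05 in limma, beside 5.04% of the 655 clones tested. The slope uses values on which the members were chosen, and a limit from above at every time favours falling slopes among them, so nothing is read from the larger share. In all 10 the log2 ratio was higher at 24 h than at 10 h. Of the 10, 8 had a fed signal not above background at 10 h. With each dim value set to its bound, 10 members again passed, 9 of them the same. For RAFL06-11-J09 the bound is the value as measured, and its slope stayed at -0.95. Refitting at the bound therefore cannot tell what part the dim signal of RAFL06-11-J09 had in its slope. The other dim members of the 10 had less steep slopes at their bounds, such as -1.84 against -2.52 for RAFL04-17-F21. A bound is not a measured value, so the part of the dim signals in the slopes was not tested. The 10 h array was alone on its slide in the fits over 2, 5 and 10 h, so that slide and time cannot be told apart.

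The steepest of the 10 were RAFL04-17-F21 and RAFL05-20-N17, both with a fed signal not above background at 10 h. With that value at its bound, the slope of RAFL04-17-F21 was -1.84 ± 0.22 (SE) per doubling of time, with a limma adjusted p of 0.000176, and as measured it was -2.52 ± 0.22, with a limma adjusted p of 3.48e-05. For RAFL05-20-N17 the slopes were -1.61 ± 0.22 at the bound and -2.37 ± 0.22 as measured. These 2 were also the members that passed when lambda DNA was set to 0, where 2 of the 46 passed. The slope of RAFL05-07-N04 was -1.17 ± 0.22 at its bounds and -2.0 ± 0.21 as measured. AT1G64500, the glutaredoxin-family gene, was the only named member among the 10, with a slope of -1.28 ± 0.21 and a limma adjusted p of 0.00225 at its bound, and of -1.64 ± 0.23 and 0.00126 as measured. The others were RAFL05-19-M20, RAFL09-17-N23, RAFL09-10-C12, RAFL06-11-J09, RAFL09-18-F04 and RAFL16-78-C08, with slopes as measured from -1.45 to -0.85. At its bound RAFL16-78-C08 no longer passed, and RAFL09-15-K07 did, with a slope of -0.72 ± 0.21 and a limma adjusted p of 0.0484. RAFL09-17-N23 and RAFL09-18-F04 were the ones with a fed signal above background at 10 h. The SEs and p-values of these slopes rest on 1 array per time, and mainly on the variance that eBayes shares over all clones. A value at its bound enters the fit as if it had been measured. Since the members were chosen on these same values, the p-values only describe the slopes.

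**Figure D5:**
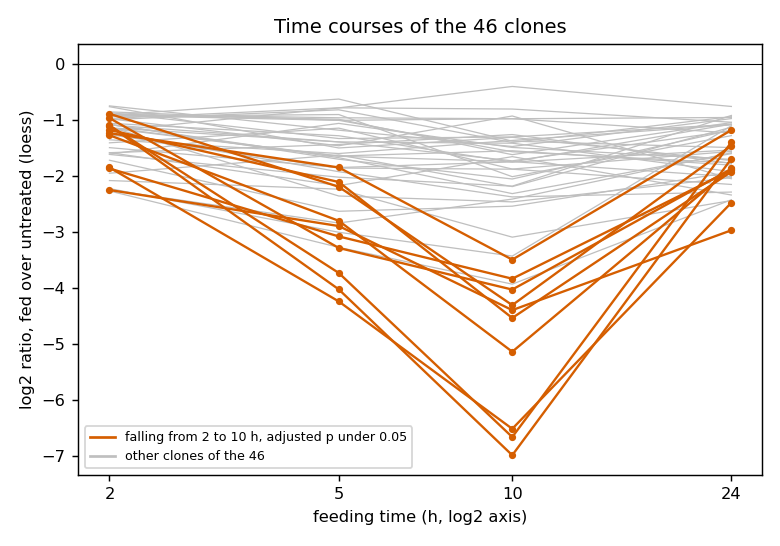
Log2 ratio of fed over untreated plants (y axis, loess) of the 46 members against feeding time (x axis, hours on a log2 scale, 1 array each). Orange lines are the 10 members whose slope from 2 to 10 h passed in limma, 8 of them with a fed signal not above background at 10 h, and all 10 are higher again at 24 h.

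The limit of the rule cut through a continuous series of clones. Just inside it, by the highest of their 4 deposited values, were RAFL06-68-O13, PSAE-1 and RAFL08-17-D06, each at -0.81. Just outside were RAFL05-12-L08, AT2G21340 and RAFL05-13-J04, each at -0.79. RAFL05-13-J04 had log2 ratios of -1.23, -2.34, -5.74 and -0.65 at 2, 5, 10 and 24 h, a course of the kind seen in several members. A limit of -1 would have kept 32 clones and a limit of -0.6 would have taken 76. A further 67 clones with 4 values met the limit at exactly 3 times, and 44 of these missed it at 2 h, 3 at 5 h, 3 at 10 h and 17 at 24 h.

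The named clones that came nearest without meeting the limit were AT2G21340, a transporter of the MATE family, SAPX, the stromal ascorbate peroxidase that removes hydrogen peroxide in chloroplasts, CEF, a Sec24-like protein of vesicle coats, AT1G19110 and ECS1, a cell-wall protein. AT2G21340 had loess log2 ratios of -0.87, -0.96, -1.63 and -1.42 at 2, 5, 10 and 24 h. SAPX had -0.80, -1.01, -0.72 and -0.76, with little difference between times. ECS1 had -1.99, -1.28, -0.68 and -0.63, the opposite order in time to PSAE-1. Another 6 clones met the limit at 3 times and lacked a value at the fourth, among them EXO, which takes part in brassinosteroid-promoted growth, and AT1G07440.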

How the data were processed

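The 4 two-colour cDNA arrays, 1 per feeding time, were scanned and quantified with ScanArray Express per the labels, and the deposited files give each spot's intensity and local background on a linear scale. A deposited table of natural log values was set against the scanner's Cy5 over Cy3 ratios clone by clone. No source states how its values were scaled, centred or signed, and it was read as ln Cy5 over Cy3 (r from 0.992 to 0.998 by array). Its column medians were 0.440, 1.73, 0.878 and 1.25 on the log2 scale, and 8 values at 10 h sat at a floor, 5 of them in members. A correlation does not give the level of a column, so the column medians need not be those of the scanner's ratios. The rule subtracts the column median, which takes out a shift of a whole array.

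The percent of saturated pixels per spot was used as deposited.

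Members were chosen from that table by the rule in the opening. The members and gene lists were chosen with earlier results of these data known. Spots with flag 3 were used, out of 2560 per array, and 718, 857, 739 and 718 clones had a value at 2, 5, 10 and 24 h. Intensities were corrected with normexp (offset 50), normalized by loess within arrays with limma 3.58.1 in R 4.3.3, and averaged per clone. A channel was above background when the foreground exceeded the local background by 2 background SD in at least 50% of spots. A lower limit sets the untreated channel against the higher of the clone's own fed signal and the dimmest signal above background, after loess and between-array scaling of each channel, and is open to dye bias. Clones counted as at least 2-fold lower had a log2 ratio of at most -1, the same direction in all spots and an untreated channel above background. Slopes on log2 hours were fitted with limma's eBayes over all clones that could be tested and adjusted by Benjamini-Hochberg, and the fit was tested on simulated data. The number of arrays limits the precision. With 1 array per time, p-values rest on the scatter of the arrays about the fitted line, moderated by the variance that eBayes shares over clones. Since 3 to 4 experiments were pooled, they do not measure the spread between experiments.

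Named were all members with a gene symbol, the 4 unnamed members with the lowest and the 4 with the highest mean, the 4 with the widest range, the 3 clones on each side of the limit and the 5 nearest named clones outside it. RAFL09-17-N23, RAFL09-06-D04, RAFL16-78-C08 and RAFL09-15-K07, the other members of the group of 10, EXO and AT1G07440 were named after their values were seen. Gene symbols were taken from the platform annotation for 415 of the clones, updated through gene identifiers to TAIR10.1. No promoter or protein sequences were used here.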

Additional observations from a re-analysis of the deposited data

How the results depend on the processing

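Counts of clones at least 2-fold lower depended on the zero point and, less strongly, on other steps of the processing. With print-tip loess, fitted within each print block, they were 24, 32, 35 and 35 of 46 at 2, 5, 10 and 24 h, against 33, 39, 41 and 41 in the main fit. With background subtracted they were 40, 41, 40 and 44. At 2, 5, 10 and 24 h they were 6, 9, 20 and 6 of 46 with lambda DNA at 0, and 5, 11, 21 and 1 with alpha tubulin at 0. Choosing members at a limit of -0.6 gave 59 at 5 h and 66 at 10 h, out of the 76 clones taken at that limit. The median of the mean log2 ratio moved from -1.60 to -0.33 with lambda DNA and -0.34 with alpha tubulin, and was -1.34 with print-tip loess. The median range over the times moved to 1.40 with alpha tubulin. The median untreated percentile was 83.9 with any flag kept, 72.2 with both channels above background, 81.5 at a limit of -1 and 71.8 at -0.6. Leaving out each array in turn gave from 0 to 10 members with a trend, and 10 came from leaving out 24 h. Without 24 h, the counts chosen after seeing the data were 10 with dim values at their bound, 11 with median centring, 9 with print-tip loess, 2 with lambda DNA at 0, 8 with alpha tubulin at 0, 8 with background subtracted, 8 with no background correction and 7 with the deposited table. Background subtraction could test 42 members and, from the deposited values, 41. Means over the times changed sign with lambda DNA and alpha tubulin at 0, respectively, to 0.046 and 0.034 (AT1G61180), 0.071 and 0.058 (AT4G14360), 0.20 and 0.19 (AT5G18380), 0.14 and 0.13 (RAFL08-13-B17), 0.14 and 0.12 (RAFL02-10-E21), 0.33 and 0.32 (RAFL08-17-D06), 0.39 and 0.38 (RAFL06-68-O13), 0.37 and 0.36 (SAPX), 0.42 and 0.40 (CEF), 0.25 and 0.23 (AT1G19110), 0.048 and 0.036 (ECS1), and 0.27 and 0.26 (RAFL05-12-L08). Both zero points shift all clones of an array by 1 value. No paired analysis was possible because the arrays used here are 1 per feeding time, with no replicate numbers to pair. The fit with the slide as a block called 0 members. Signal over background limited the fed channel in 10 members at 10 h.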
